A study of Homo sapiens with 16 samples.

Results

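The ERK pathway feedback genes followed here are 10 genes, chosen by symbol for their known place downstream of ERK: DUSP4, DUSP5, DUSP6, SPRY2, SPRY4, SPRED1, ETV4, ETV5, PHLDA1 and IER3. They and the other gene lists were chosen with earlier results of these data known, so the shares of list genes called are descriptions. All 10 were found among the 58243 genes of the deposited count table, and all 10 passed the filter on low counts that left 16647 genes to be tested. The libraries hold polyadenylated RNA of U-251 MG, a long-used line of human glioblastoma cells, in 4 groups of 4. Cells had grown for 24 h after seeding and were then exposed for 48 h to the vehicle DMSO, to simvastatin at 0.06 µM, to irinotecan at 0.6 µM, or to the same doses of both, called the combination. No genotype or transgene separates the groups, and all libraries come from 1 line. The labels do not say that the libraries of a group were separate cultures, so p-values measure the spread between libraries, which may be technical.

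The ERK cascade carries a growth factor signal from receptor tyrosine kinases through RAS, RAF and MEK to the kinase ERK. Active ERK switches on genes, and the products of some of them then damp the same cascade. Among these are phosphatases that remove the activating phosphates from ERK, and Sprouty and Spred proteins that act at the level of receptors, RAS and RAF. Other genes that it switches on encode ETS transcription factors that carry the output onward. Because these transcripts follow ERK activity, several of them serve as a readout of pathway output in tumours. Glioblastomas often carry changes in receptor tyrosine kinases that feed this cascade. Simvastatin blocks the mevalonate pathway, which also supplies the lipid that anchors RAS in the membrane. Irinotecan is the prodrug of a topoisomerase I inhibitor. Protein phosphorylation was not measured, so the data speak of transcripts alone.

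Library totals ran from 24159673 to 32318888 counts, and single members had between 411 counts (ETV4) and 36126 counts (PHLDA1) per library. Levels are given in CPM, the share of a library's counts in the usual CPM unit after scaling by TMM factors (0.971 to 1.03), and changes as log2 fold changes with standard errors from the quasi-likelihood test of edgeR, where 1 means a doubling. The word called is used of genes whose p, adjusted across the 16647 genes by Benjamini and Hochberg's method, was below 0.05. Of 10 glial and glioblastoma markers, VIM (1985 CPM with DMSO), NES (1160 CPM), SOX2 (384 CPM) and GFAP (203 CPM) were well expressed, while OLIG2 did not exceed 0.114 CPM. S100B (4.7 CPM with DMSO) and CHI3L1 (2.3 CPM) were low. Immune markers summed to at most 0.946 CPM, with CD3E at 0 in all libraries. Among 5 epithelial markers EPCAM did not exceed 0.0828 CPM and CDH1 0.355 CPM. The others of that list were expressed with DMSO, KRT8 at 255 CPM, KRT18 at 170 CPM and CLDN4 at 9.6 CPM. Among 4 endothelial markers, PECAM1 stayed at or below 0.122 CPM and CDH5 at or below 0.302 CPM. KDR had 3.59 CPM and VWF 0.502 CPM with DMSO.

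With irinotecan, 7 of the 10 feedback genes changed against DMSO, 1 up and 6 down, beside 24.1% of all genes called (12.4% up and 11.7% down). DUSP4 rose 1.47-fold, while PHLDA1, SPRY2, ETV4, SPRED1, IER3 and DUSP6 fell by 0.18 to 0.48 on the log2 scale. With simvastatin 2 of 10 rose, IER3 and SPRY4, and none fell, beside 6.00% of all genes (3.89% up and 2.11% down). With the combination 8 of 10 changed against DMSO, 5 up (DUSP4, DUSP5, IER3, SPRY4, ETV5) and 3 down (PHLDA1, SPRY2, ETV4), beside 28.1% of all genes (15.1% up and 13.0% down). The members moved in both directions under irinotecan and the combination. The median log2 fold change over the members was -0.19 with irinotecan, 0.07 with simvastatin and 0.01 with the combination, where the medians over all genes tested were 0.00, -0.01 and 0.00. These 3 comparisons share the DMSO libraries. In RNA from whole cultures, fewer cells with a transcript and less of it per cell cannot be told apart.

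**Figure D1:**
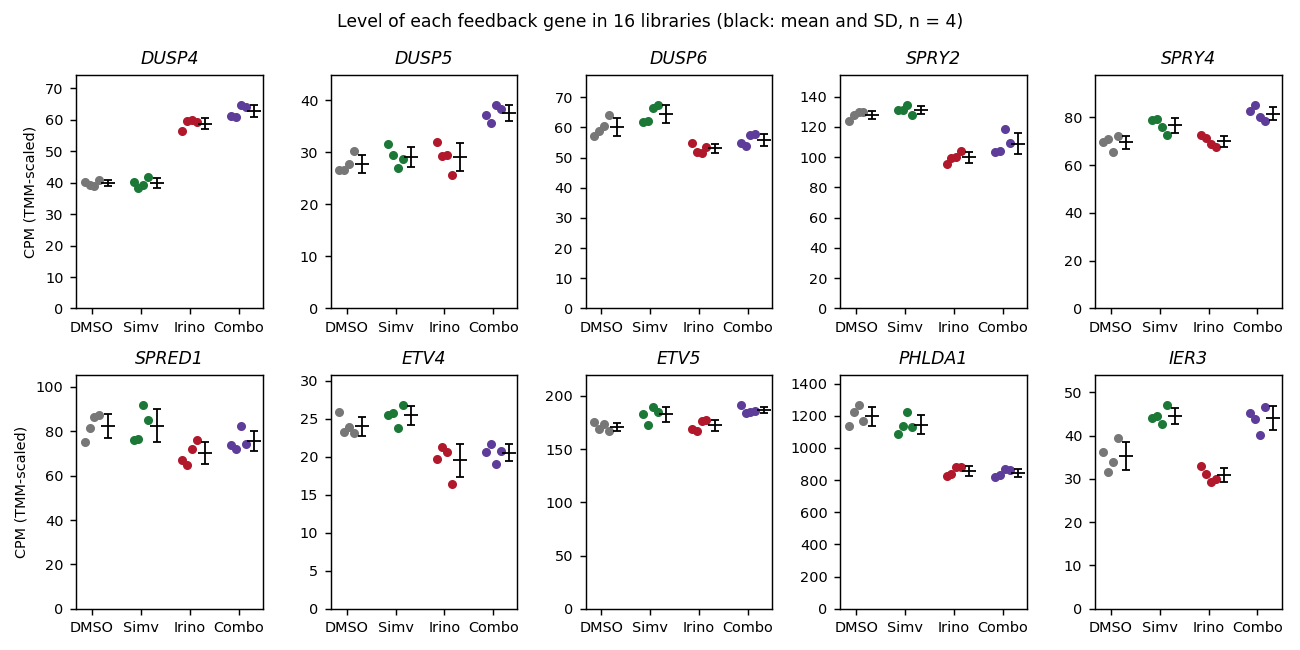
TMM-scaled CPM (linear axis from 0) of each of the 10 feedback genes in the 16 libraries, with the mean and SD of each group of 4 in black. DUSP4 lay at 38.2 to 41.7 CPM in the libraries without irinotecan and at 56.4 to 64.7 CPM in those with it, and PHLDA1 showed the opposite order.

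Of the dual-specificity phosphatases, DUSP4 is a nuclear enzyme that acts on ERK and on the stress kinases JNK and p38. It lies on chromosome 8 of GRCh38 from 29333064 to 29350668, on the minus strand. In replicates 1 to 4 it stood at 40.3, 39.4, 39.0 and 40.9 CPM with DMSO, and at 40.3, 38.2, 39.4 and 41.7 CPM with simvastatin. With irinotecan the libraries read 56.4, 59.7, 60.0 and 59.2 CPM. With the combination they read 61.3, 61.1, 64.7 and 64.0 CPM. Every library with irinotecan was thus above every library without it, while the DMSO and simvastatin libraries overlapped. The log2 fold change of DUSP4 was 0.56 ± 0.04 with irinotecan (edgeR adjusted p = 2.35e-11) and 0.65 ± 0.04 with the combination (6.93e-13), and simvastatin alone gave 0.00 ± 0.04. Its levels with the combination lay above those with irinotecan in all 4 libraries, by 0.09 ± 0.04, which did not pass the adjusted test (adjusted p = 0.215).

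DUSP5, a nuclear phosphatase that acts on ERK and is itself induced by it, was high in the combination (chromosome 10, 110497838 to 110511544, plus strand). Replicates 1 to 4 stood at 26.6, 26.7, 27.8 and 30.2 CPM with DMSO, at 31.6, 29.4, 27.0 and 28.7 CPM with simvastatin, and at 31.98, 29.4, 29.4 and 25.6 CPM with irinotecan. With both drugs they stood at 37.2, 35.6, 39.1 and 38.3 CPM. The combination libraries were above all the others, and the remaining groups overlapped. DUSP5 rose by 0.43 ± 0.06 in the combination against DMSO (edgeR adjusted p = 2.39e-06), by 0.37 ± 0.06 against irinotecan (0.000142) and by 0.36 ± 0.06 against simvastatin (3.64e-05). The single drugs gave 0.07 ± 0.06 each, and neither passed in the fit of all libraries. In the 12 numbered libraries irinotecan against DMSO gave 0.16 for DUSP5, which passed with the replicate number as a block (adjusted p = 0.0366) and not without it (0.0885). The interaction, by which the combination exceeded both single drugs added on the log2 scale, was 0.30 for DUSP5 (95% confidence interval 0.12 to 0.48) and did not pass (edgeR adjusted p = 0.66).

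DUSP6, the cytoplasmic phosphatase specific for ERK, fell with irinotecan (chromosome 12, 89347232 to 89353271, minus strand). DMSO libraries held 57.1 to 64.0 CPM and simvastatin libraries 61.7 to 67.4 CPM. Irinotecan libraries held 51.7 to 54.8 CPM and combination libraries 53.8 to 57.7 CPM. The irinotecan libraries lay below all DMSO libraries, and those of the combination overlapped both. The log2 fold change was -0.18 ± 0.05 for irinotecan against DMSO (edgeR adjusted p = 0.003) and -0.20 ± 0.05 for the combination against simvastatin (0.00105). Scaling by library totals alone brought the former to -0.11, which no longer passed (adjusted p = 0.0668). In the combination against DMSO it was -0.11 ± 0.05 and did not pass (adjusted p = 0.083), and without DMSO replicate 1 it was -0.13 and passed (0.0462). An antisense transcript, AC024909.2, shares 1875 of the 4632 exon bases of DUSP6 and had 2 to 15 counts. The strand setting of the counting is not given in the sources used here.

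Promoters of 5 members (DUSP6, SPRY2, SPRY4, SPRED1 and PHLDA1, with 7 start sites) were in the RefSeq table for GRCh38.p14, and those of DUSP4, DUSP5, ETV4, ETV5 and IER3 are not shown. The 250 bases before each start were searched on both strands for the octamers of CIC, a repressor that ERK signalling relieves (TGAATGAA, TGAATGGA, TCAATGAA and TCAATGGA), for the ETS site CCGGAAGT, the AP-1 site TGACTCA, the cyclic AMP response element TGACGTCA and the CArG box bound by SRF. The windows of DUSP6, SPRY4, SPRED1 and PHLDA1 lay within the GENCODE 29 bounds of these genes, as did some of those of SPRY2. Bases before the outermost annotated 5′ ends of DUSP6, SPRY4, SPRED1 and PHLDA1 were thus not searched. The only match was a CIC octamer at DUSP6, and an octamer of this set was present in 3.18% of 35116 promoters. It is shown because it is the single match among these members, on the minus strand of chr12:89352502-89352531, 5′ to 3′, with the match in capitals (TCAATGGA read on the other strand), at bases -24 to -17 from the start.
DUSP6: aatgtaTCCATTGAgacgctcgctgtttgt
Of the 5 DUSP6 transcripts in GENCODE 29, 1 has an exon over this stretch. A match describes letters in a window and not a bound site, and binding was not measured.

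The Sprouty genes encode inhibitors that intercept receptor tyrosine kinase signals before they reach ERK, and the 2 members differed from each other. SPRY2 (chromosome 13, 80335976 to 80340951, minus strand) stood in replicates 1 to 4 at 124, 127.8, 129.8 and 129.5 CPM with DMSO and at 131, 130.8, 134 and 128 CPM with simvastatin. With irinotecan it stood at 95.3, 99.7, 100.4 and 104 CPM, and with the combination at 103.5, 104.0, 118 and 109 CPM. All 8 libraries with irinotecan were below all 8 without it. SPRY2 fell by 0.36 ± 0.04 with irinotecan (edgeR adjusted p = 6.46e-08), by 0.23 ± 0.04 with the combination (6.08e-05) and by 0.27 ± 0.04 in the combination against simvastatin (8.01e-06). The combination was 0.13 ± 0.04 above irinotecan, which did not pass (adjusted p = 0.0698), and it passed without irinotecan replicate 4 (0.0371), combination replicate 1 (0.0444) or combination replicate 2 (0.0482). It also passed in the 12 numbered libraries with the replicate number as a block (0.0106). DESeq2 gave an adjusted p of 0.027.

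SPRY4 was not called with irinotecan, at 0.01 ± 0.04 (95% confidence interval -0.08 to 0.10; chromosome 5, 142310427 to 142326455, minus strand). In replicates 1 to 4 it read 69.8, 70.8, 65.6 and 72.0 CPM with DMSO, 78.9, 79.4, 76.1 and 72.5 CPM with simvastatin, and 72.6, 71.3, 68.7 and 67.4 CPM with irinotecan. With the combination it read 82.6, 85.1, 79.9 and 78.6 CPM. The combination libraries lay above all DMSO and irinotecan libraries, and those with simvastatin above all DMSO libraries, with 72.5 against 72.0 CPM as the nearest pair. SPRY4 rose in the combination by 0.23 ± 0.04 against DMSO (edgeR adjusted p = 0.000121) and by 0.22 ± 0.04 against irinotecan (0.000917). Simvastatin against DMSO gave 0.14 ± 0.04 (adjusted p = 0.0458), a call that was lost when DMSO replicate 1, 2 or 3 (0.0795, 0.0638 and 0.168), simvastatin replicate 1 or 2 (0.15 and 0.144), irinotecan replicate 2 or 3 (0.0508 and 0.0546) or combination replicate 1 or 4 (0.0552 and 0.0527) was left out. It was also lost without a filter on low counts (0.0895) and in a fit of only the DMSO and simvastatin libraries (0.104). In the combination against simvastatin SPRY4 gave 0.09 ± 0.04 (adjusted p = 0.134), which passed with scaling by library totals alone (0.14, 0.0131).

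SPRED1 encodes a membrane protein that brings the RAS inhibitor neurofibromin to RAS (chromosome 15, 38252326 to 38357249, plus strand). Its spread within groups was wide, with 75.3 to 87.2 CPM for DMSO, 76.2 to 91.7 CPM for simvastatin, 64.9 to 76.1 CPM for irinotecan and 71.9 to 82.4 CPM for the combination. It fell by 0.24 ± 0.06 with irinotecan (edgeR adjusted p = 0.00665), although the highest irinotecan library was above the lowest DMSO library. In the fit of all libraries no other comparison of SPRED1 passed, and the combination stood at -0.13 ± 0.06 against DMSO (adjusted p = 0.142). That value passed without a filter on low counts (0.042) and in a fit of only the groups compared (0.0355). Without that filter the combination against simvastatin passed as well (-0.13, 0.0484). Against irinotecan the combination gave 0.11 ± 0.06 (adjusted p = 0.368), and in the 12 numbered libraries it gave 0.16, which passed with the replicate number as a block (0.00878) and not without it (0.257).

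ETV4 and ETV5 are closely related ETS transcription factors that respond to growth factor signals through ERK, and their changes differed. ETV4 (chromosome 17, 43527844 to 43579620, minus strand) ranged over 23.1 to 25.8 CPM in the DMSO libraries and 23.7 to 26.7 CPM in the simvastatin libraries. It ranged over 16.4 to 21.3 CPM in the irinotecan libraries and 19.0 to 21.7 CPM in the combination libraries. All libraries with irinotecan lay below all libraries without it. It fell by 0.29 ± 0.07 with irinotecan (edgeR adjusted p = 0.00156), by 0.23 ± 0.07 with the combination (0.013) and by 0.31 ± 0.07 in the combination against simvastatin (0.00109). Irinotecan replicate 4 was the lowest library. The call against DMSO in the combination was lost without DMSO replicate 1 (-0.19, adjusted p = 0.0564), without combination replicate 3 (-0.19, 0.0574) and with scaling by library totals alone (-0.17, 0.0616). DHX8, on the opposite strand, has 68 of the 3607 exon bases of ETV4 in common with it.

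ETV5 had the smallest range between group means among the members, 0.12 log2 units (chromosome 3, 186046308 to 186110318, minus strand). DMSO libraries stood at 167 to 175 CPM and simvastatin libraries at 172.5 to 189.7 CPM. Irinotecan libraries stood at 167 to 177 CPM and combination libraries at 184 to 191 CPM. The combination libraries were above all DMSO and irinotecan libraries and overlapped those with simvastatin. ETV5 rose by 0.12 ± 0.04 in the combination against DMSO (edgeR adjusted p = 0.00905), a call that was lost in the 12 numbered libraries fitted without the replicate number (0.0612) and kept there with the number as a block (0.00969). Against irinotecan it was 0.11 ± 0.04 higher without passing (adjusted p = 0.0559), and it passed without simvastatin replicate 2 (0.0466), simvastatin replicate 3 (0.0408) or irinotecan replicate 4 (0.0369). It also passed with only the groups compared (0.0439) and in the 12 numbered libraries with the block (0.00882). DESeq2 gave an adjusted p of 0.0109. The exons of ETV5 share 164 of 5802 bases with DGKG on the same strand.

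PHLDA1, a pleckstrin homology-like protein whose transcript follows ERK activity, was the most abundant member (chromosome 12, 76025447 to 76033932, minus strand). Replicates 1 to 4 stood at 1134, 1221, 1265 and 1166 CPM with DMSO and at 1084, 1134, 1224 and 1133 CPM with simvastatin. With irinotecan they stood at 825, 839, 879 and 883 CPM, and with the combination at 817, 832, 869.8 and 863 CPM. The libraries with irinotecan were well below all the others, and the simvastatin libraries overlapped those of DMSO, as the combination libraries overlapped those of irinotecan. PHLDA1 fell by 0.48 ± 0.04 with irinotecan (edgeR adjusted p = 6.19e-11), by 0.50 ± 0.04 with the combination (2.4e-11) and by 0.44 ± 0.04 in the combination against simvastatin (5.43e-10). Simvastatin gave -0.07 ± 0.04 against DMSO (adjusted p = 0.421) and -0.02 ± 0.04 on top of irinotecan (95% confidence interval -0.10 to 0.06, adjusted p = 0.861).

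IER3, an immediate early gene whose product is a substrate of ERK and affects survival under stress, moved with simvastatin (chromosome 6, 30743199 to 30744554, minus strand). With DMSO replicates 1 to 4 read 36.2, 31.7, 33.9 and 39.4 CPM, and with simvastatin 44.2, 44.5, 42.6 and 47.0 CPM. Under irinotecan they read 33.1, 31.1, 29.4 and 29.9 CPM, and under both drugs 45.2, 43.9, 40.2 and 46.7 CPM. Each library with simvastatin was above each library without it, whether or not irinotecan was present. IER3 rose by 0.33 ± 0.06 with simvastatin (edgeR adjusted p = 0.00031), by 0.31 ± 0.06 with the combination against DMSO (0.000141) and by 0.51 ± 0.06 with the combination against irinotecan (4.81e-07). It fell by 0.20 ± 0.06 with irinotecan alone (adjusted p = 0.0159), in overlapping libraries. That call was lost without DMSO replicate 4 (-0.14, 0.112), without irinotecan replicate 3 (-0.18, 0.0545), in the 12 numbered libraries (-0.12, 0.202, and 0.0971 with the replicate number as a block) and with scaling by library totals alone (-0.12, 0.133).

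**Figure D2:**
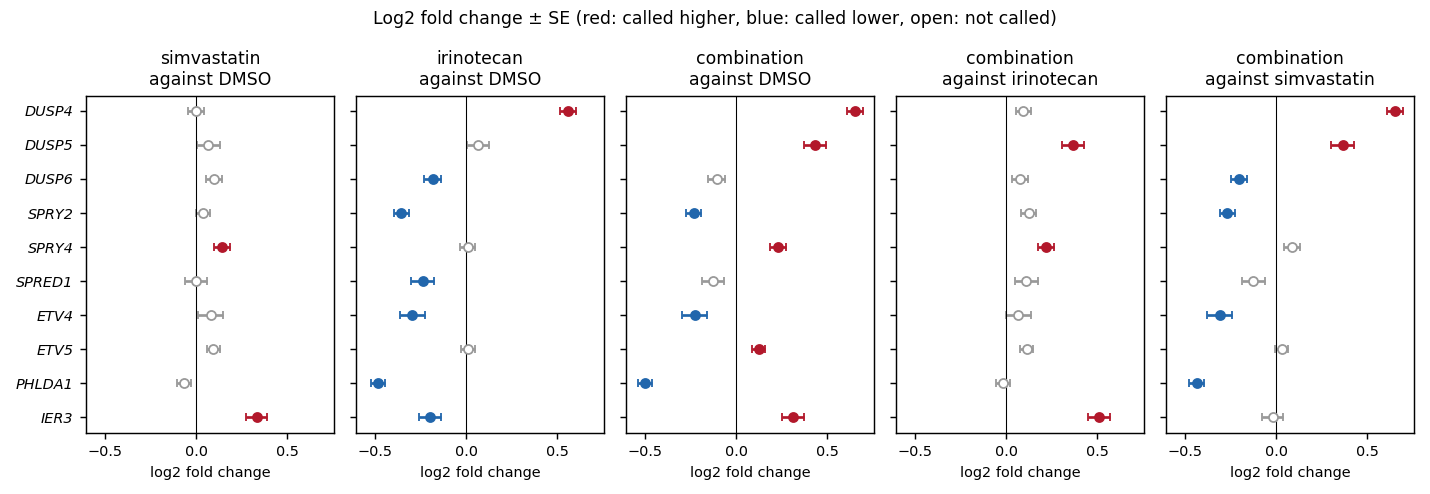
Log2 fold change with its standard error for each of the 10 feedback genes in 5 comparisons, filled red where called higher, filled blue where called lower and open where not called. Irinotecan gave 6 blue points and 1 red point (DUSP4), and simvastatin 2 red points (SPRY4 and IER3).

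Per kilobase of exon, the order of levels with DMSO began with PHLDA1 at 148 ± 7 CPM per kilobase (SD, n = 4), followed by SPRY2 at 42.0 ± 0.9, ETV5 at 29.5 ± 0.6 and IER3 at 26.1 ± 2.5. DUSP6 followed at 13.0 ± 0.6 CPM per kilobase. DUSP5 (10.6 ± 0.7), SPRY4 (10.6 ± 0.4) and SPRED1 (9.99 ± 0.66 CPM per kilobase) were neighbours within their spread. ETV4 at 6.65 ± 0.35 and DUSP4 at 5.50 ± 0.12 CPM per kilobase were the lowest. With irinotecan DUSP4 stood at 8.10 ± 0.23 CPM per kilobase, above ETV4 at 5.41 ± 0.61. These levels rest on the union of all exons annotated in GENCODE 29, which need not be the exons used in this line. The within-group coefficient of variation of single members was 1.64% to 11.3%.

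Each drug could be compared in 2 backgrounds with no library in common. On top of irinotecan, simvastatin raised 3 of 10 feedback genes (IER3, DUSP5 and SPRY4) and lowered none, beside 5.94% of all genes called (4.45% up and 1.50% down). The median over the members was 0.11, against 0.00 over all genes. Simvastatin had the same sign without and with irinotecan in 8 of 10 members, positive in 7 and negative in PHLDA1, and in the other two, DUSP4 and SPRED1, the change against DMSO was 0.00. On top of simvastatin, irinotecan raised DUSP4 and DUSP5 and lowered PHLDA1, ETV4, SPRY2 and DUSP6, 6 of 10 members beside 25.6% of all genes (13.9% up and 11.7% down). The sign of the irinotecan change was the same without and with simvastatin in 10 of 10 members, 4 positive and 6 negative. Some signs in these counts rest on changes smaller than their standard errors. Irinotecan against DMSO gave 0.01 ± 0.04 for both SPRY4 and ETV5, and the combination against simvastatin gave -0.02 ± 0.06 for IER3. Simvastatin on top of irinotecan gave -0.02 ± 0.04 for PHLDA1. Each of these values changed sign with some single library left out. How many of all genes kept their sign was not counted.

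**Figure D3:**
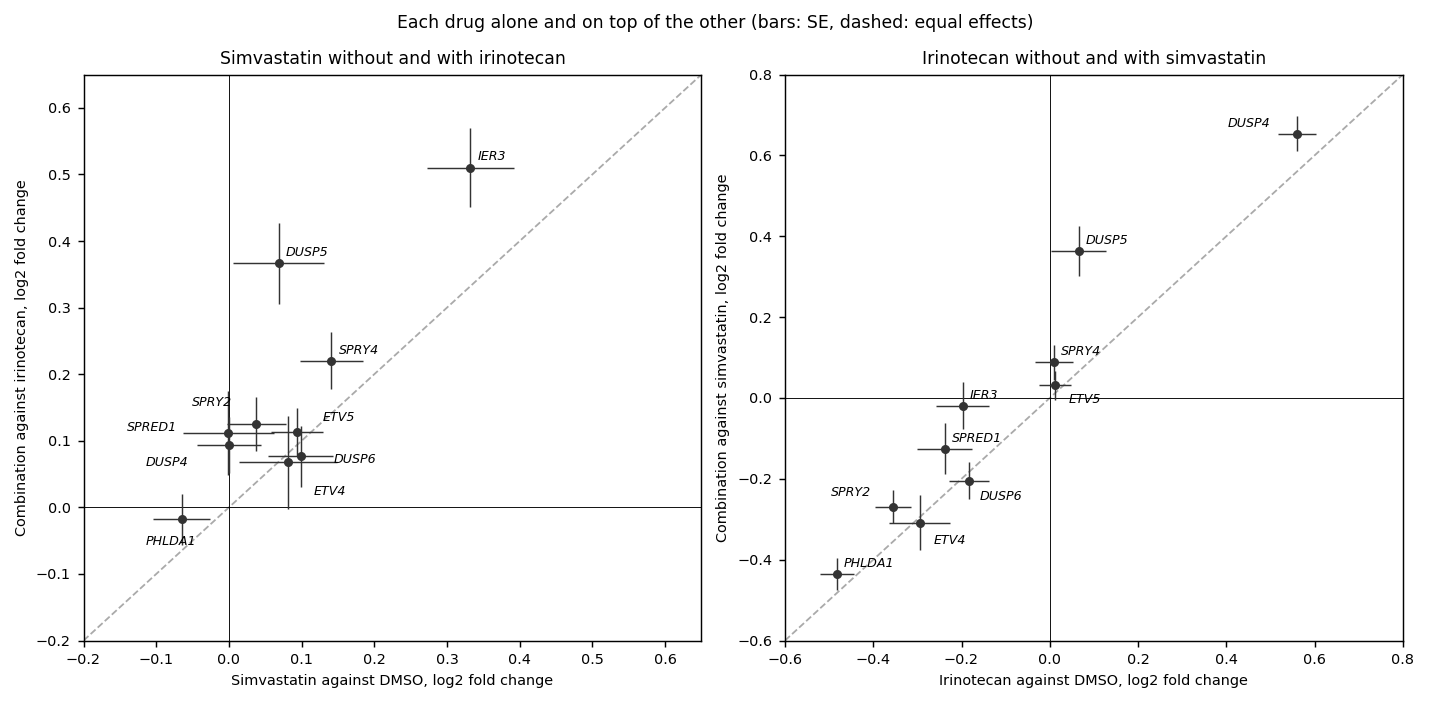
Log2 fold change of each feedback gene for simvastatin (left) and irinotecan (right), in the absence (x axis) and presence (y axis) of the other drug, with standard errors as bars and equality as a dashed line. DUSP5 lies above the line in both panels, and IER3 is the highest point on the left.

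The test of the difference itself, the interaction, called 0 of 10 members with edgeR, beside 0.0120% of all genes. It also called 0 with DESeq2. Unadjusted, 2 members were under 0.05, DUSP5 and IER3 (0.18, 95% confidence interval 0.01 to 0.35), where 6.01% of all genes were. The interaction ran from -0.02 (DUSP6) to 0.30 (DUSP5) over the members and was positive in 8 of them. Its 95% confidence intervals reached from -0.21 to 0.48, so departures of that size in single members remain possible with these libraries.

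With irinotecan, 5 of 10 members had no overlap with DMSO in their libraries (23.4% of all genes), against 8 with the combination (26.2%) and 2 with simvastatin (10.0%). In the combination, 5 members had no overlap with irinotecan (13.1% of all genes) and 6 had none with simvastatin (25.8%). In the combination against irinotecan these were the 3 called genes with DUSP4 and ETV5.

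CCND1, EPHA2 and EPHA4 share a published MAPK activity signature with most of these members. CCND1 encodes cyclin D1, and EPHA2 and EPHA4 encode ephrin receptors. With irinotecan CCND1 (-0.15 ± 0.03) and EPHA2 (-0.17 ± 0.04) fell and EPHA4 rose (0.17 ± 0.05), with edgeR adjusted p = 0.000496, 0.000719 and 0.0182. The EPHA4 call was lost without DMSO replicate 1 (0.0711) or 4 (0.0735) or irinotecan replicate 3 (0.0535) or 4 (0.0776), and in the 12 numbered libraries (0.12) with the replicate number as a block (0.12) and without it (0.216). None of the 3 was called with simvastatin, and CCND1 rose by 0.13 ± 0.03 in the combination against irinotecan (adjusted p = 0.0133), a call that was lost without a filter on low counts (0.117) and in the 12 numbered libraries without the replicate number (0.0949), and kept there with the number as a block (0.0124). In the combination against DMSO EPHA4 rose by 0.27 ± 0.05 (edgeR adjusted p = 0.000213), EPHA2 fell by 0.11 ± 0.04 (0.0209) and CCND1 was not called (-0.03). The EPHA2 call was lost without DMSO replicate 1 (0.0856) or 3 (0.0507) or combination replicate 2 (0.0768), and with scaling by library totals alone (0.256). Of the 3, 3 were called with irinotecan (beside 24.1% of all genes) and 0 with simvastatin (6.00%). In the combination 2 were called against DMSO (28.1%) and 1 against irinotecan (5.94%).

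Other negative regulators of the pathway also went both ways. Of 17 tested, 3 rose and 3 fell with irinotecan (35.3%, beside 24.1% of all genes), with a median of -0.01. DUSP2, another ERK phosphatase, rose by 1.16 ± 0.17 on the log2 scale from low levels (1.16 to 2.17 CPM with DMSO, 3.33 to 4.96 CPM with irinotecan), and SPRY1, another Sprouty gene, fell by 0.60 ± 0.08. SPRY1 had 12.8 to 16.1 CPM with DMSO and 8.05 to 10.2 CPM with irinotecan. With simvastatin 2 of 17 rose (11.8%, beside 6.00% of all genes), ERRFI1 (0.33 ± 0.04), whose product inhibits the EGF receptor, and SPRY1 (0.28 ± 0.08). Both also rose with simvastatin on top of irinotecan, ERRFI1 by 0.22 ± 0.04 and SPRY1 by 0.28 ± 0.09. The SPRY1 calls were fragile: that for simvastatin was lost without DMSO replicate 2 (edgeR adjusted p = 0.102) or 3 (0.101) or simvastatin replicate 3 (0.0674) or 4 (0.069). The call on top of irinotecan was lost without simvastatin replicate 1 (0.0525), irinotecan replicate 1 (0.0603), 2 (0.0934) or 4 (0.127), or combination replicate 2 (0.0666), 3 (0.139) or 4 (0.0798). ERRFI1 stood at 292 to 322 CPM with DMSO and at 372 to 399 CPM with simvastatin.

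Genes upstream of ERK changed unevenly. Of 20 receptors and ligands tested, 8 rose and 5 fell with irinotecan (65%, beside 24.1% of all genes, median 0.06), and 2 rose and 4 fell with simvastatin (30%, beside 6.00%, median 0.05). HBEGF, a ligand of the EGF receptor, rose by 0.70 ± 0.12 with simvastatin, by 0.98 ± 0.11 with irinotecan and by 1.53 ± 0.11 with the combination. The DMSO libraries held 2.77 to 3.47 CPM of it, the simvastatin libraries 4.75 to 5.28, the irinotecan libraries 5.56 to 6.48 and the combination libraries 7.43 to 9.77 CPM. The platelet-derived growth factor gene PDGFA fell by 0.55 ± 0.04 and its receptor gene PDGFRA by 0.35 ± 0.05 with irinotecan. PDGFRA also fell with simvastatin (-0.23 ± 0.05), as did the receptor genes FGFR2 (-0.21 ± 0.05) and FGFR3 (-0.26 ± 0.06). Of 17 adaptors, RAS proteins and exchange factors, 2 rose and 1 fell with irinotecan (17.6%, beside 24.1% of all genes) and 0 were called with simvastatin (beside 6.00%). In the combination against DMSO 6 rose and 1 fell (41.2%, beside 28.1%), with the adaptor genes GRB2 (0.18 ± 0.03) and SHC1 (0.17 ± 0.03) among the former.

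Of 11 genes for RAF, MEK, ERK and their scaffolds, MAP2K1, which encodes MEK1, rose with simvastatin (0.14 ± 0.04, edgeR adjusted p = 0.0243), fell with irinotecan (-0.16 ± 0.04, 0.00296) and rose in the combination against irinotecan (0.20 ± 0.04, 0.00132). It was the single gene of its list called in each of these comparisons (9.09%, beside 6.00%, 24.1% and 5.94% of all genes). MAP2K1 had 108 to 117 CPM in the DMSO libraries and 119 to 129 CPM in the simvastatin libraries. It had 96.8 to 104 CPM in the irinotecan libraries and 112 to 119 CPM in the combination libraries. The simvastatin call was lost without DMSO replicate 2 (0.0908) or 4 (0.104) or simvastatin replicate 3 (0.0507) or 4 (0.118), and in the 12 numbered libraries (0.10, 0.3, and 0.102 with the replicate number as a block). The irinotecan call was lost with scaling by library totals alone (-0.08, 0.101).

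Among 15 ERK substrates and nuclear effectors, 3 rose and 5 fell with irinotecan (53.3%, beside 24.1% of all genes, median -0.05). They included MKNK2 (0.48 ± 0.05) and RPS6KA1 (0.47 ± 0.05), kinases that ERK activates, and the ETS factor genes ELK3 (-0.32 ± 0.04) and ERF (-0.26 ± 0.05), a repressor that ERK exports from the nucleus. Among 20 immediate early genes, 4 rose and 7 fell with irinotecan (55%, median -0.05). MYC (-0.72 ± 0.05), JUN (-0.46 ± 0.04) and EGR1 (-0.34 ± 0.04) fell, and IER5 rose (0.35 ± 0.05). With simvastatin 2 of the 20 rose, ATF3 (0.45 ± 0.07) and KLF4 (0.34 ± 0.09), and EGR1 fell by 0.14 ± 0.04 (15% called, beside 6.00% of all genes). IER3 and EGR1, both early response genes, thus had opposite signs with simvastatin, though the EGR1 libraries overlapped those of DMSO. The KLF4 call was lost without DMSO replicate 1 (edgeR adjusted p = 0.0647) or 4 (0.0598) or simvastatin replicate 2 (0.051) or 4 (0.066). It was also lost in the 12 numbered libraries without the replicate number (0.152). The EGR1 call was lost without DMSO replicate 2 (0.149) or 4 (0.112) or simvastatin replicate 1 (0.0646), 3 (0.0635) or 4 (0.168). It was also lost with only the groups compared (0.083) and in the 12 numbered libraries (0.365, and 0.17 with the replicate number as a block).

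**Figure D4:**
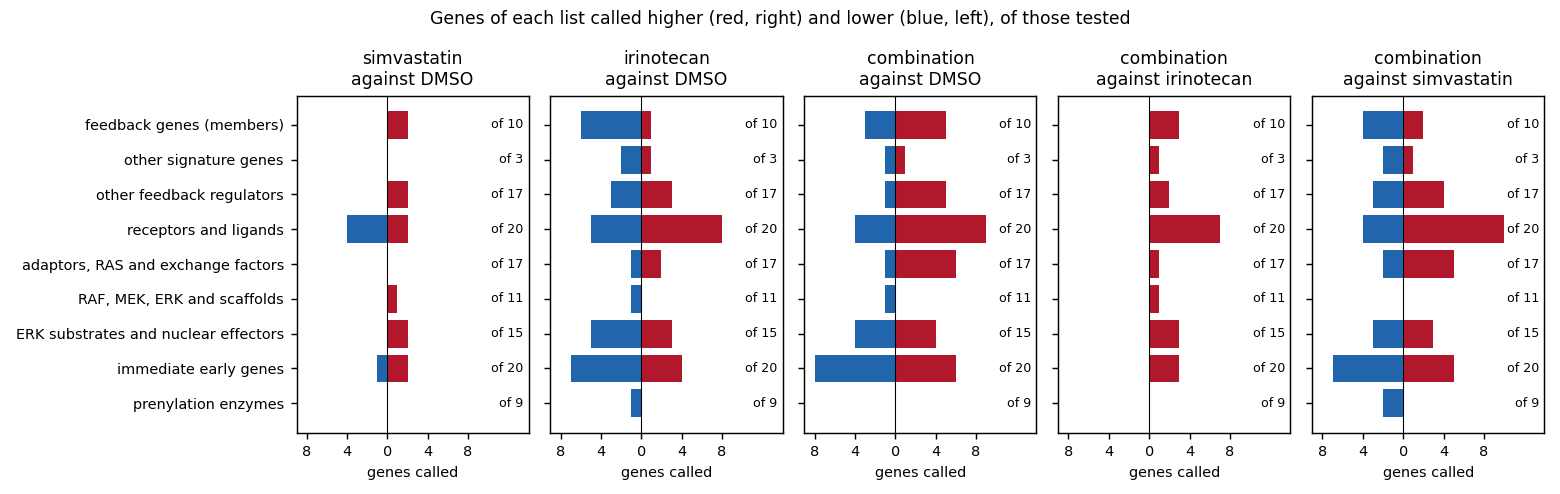
Number of genes called higher (red, to the right) and lower (blue, to the left) in each pathway list for 5 comparisons, with the number tested at the right of each row. Irinotecan against DMSO has bars on both sides in most lists, and the combination against irinotecan has bars on the higher side only.

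The genes whose 4 group means were nearest to those of a member, by the root mean square difference of centred log2 CPM over 4 groups and 12015 genes, were FRMD6 (0.01), DLC1 (0.02) and CALCRL (0.02) for DUSP4. For PHLDA1 they were CDON (0.01), STK17A (0.01) and MAML3 (0.02). For IER3 they were CSRNP1, EIF2AK3 and CALU (0.03 each). These are descriptions over 4 points from the same libraries.

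Other marker lists moved with irinotecan beside the members. The sum of the glial and glioblastoma markers was 7508 to 7783 CPM with DMSO and 7264 to 7388 CPM with simvastatin. It was 5603 to 5753 CPM with irinotecan and 5536 to 5697 CPM with the combination. Of the 9 tested, 7 fell and 1 rose with irinotecan, beside 24.1% of all genes called (12.4% up and 11.7% down). Epithelial markers summed to 410 to 467.5 CPM with DMSO and 372.5 to 404 CPM with simvastatin. They summed to 571.5 to 633 CPM with irinotecan and 506 to 576 CPM with the combination, nearly all from KRT8, KRT18 and CLDN4. With irinotecan 3 of 3 tested rose, beside 12.4% of all genes up. Endothelial markers summed to 3.93 to 4.33 CPM with DMSO, 3.67 to 4.33 CPM with simvastatin and 5.28 to 6.31 CPM with irinotecan, mostly from KDR. Neuronal markers summed to 19.5 to 20.9 CPM with DMSO, 23.6 to 26.3 CPM with simvastatin and 22.6 to 25.1 CPM with irinotecan. Of the 4 neuronal markers tested, 1 was called with irinotecan (25%, beside 24.1% of all genes) and 1 with simvastatin (25%, beside 6.00%). The part of these marker lists in the changes of the feedback genes was not tested.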

How the data were processed

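The deposited table holds raw counts per gene, not normalised by the authors. Per the submitters' processing notes, FastQC, STAR 2.7.1, GRCh38 and DESeq2 were used. For the annotation release, the counting step and its strandedness nothing is stated in the labels or headers. Columns were matched to libraries by library name. In each group the library without a number in its title was called replicate 4.

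In R 4.3.3, edgeR 4.0.16 was run on the counts: filterByExpr (minimum count 10, minimum total 15), TMM factors, a robust quasi-likelihood fit of the 16 libraries with a mean for each group, and 6 contrasts, the last being the interaction (combination minus both single drugs plus DMSO, on the log2 scale). P-values were two-sided, adjusted over all 16647 genes. GENCODE 29 (GRCh38) gave loci and exon lengths and matched 57980 of the 58243 gene IDs, and RefSeq gave promoters. Libraries of a group were checked for duplicates (chi-squared per degree of freedom 2.59 to 15.4, near 1 for a repeat). The fit was tested on simulated data. Figures used matplotlib 3.10.9.

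The members and gene lists were chosen with earlier results of these data known. Named were all members, 3 further signature genes, up to 4 called genes with the smallest p per list, and the 3 genes nearest in pattern to the 3 members with the widest range. Results of some genes that this rule takes are left out. Alternatives were DESeq2 1.42.0, other scalings, no filter, a stricter threshold, fewer libraries or groups, a replicate block and leaving out each library, run for the members, the 3 signature genes and 20 other named genes.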

Additional observations from a re-analysis of the deposited data

Results flagged for a closer look

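EPHA2, a gene of the MAPK activity signature, had 1 library apart from its group: irinotecan replicate 4 stood at 307 CPM, with the other irinotecan libraries at 328 to 332 CPM. ATF3, an immediate early gene, had combination replicate 4 at 36.9 CPM, with the other combination libraries at 32.9 to 33.4 CPM. The gap to the nearest library was 0.848 and 0.863 of the range of the group, above the critical value of Dixon's test for 4 libraries. Such a gap was looked for in 132 groups of libraries (each named gene of the pathway in each treatment), where chance gives about 6.6 (1 in 20), and 2 were found. No member had one.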

How the results depend on the processing

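With 1 library left out, 6 to 7 members were called for irinotecan against DMSO, 7 to 8 for the combination against DMSO, 6 for the combination against simvastatin and 0 for the interaction. Other alternatives gave 5 to 7, 7 to 9, 6 to 7 and 0. The lowest, 5 for irinotecan, came from scaling by library totals, which lost DUSP6 and IER3. For simvastatin against DMSO it was 1 to 2, and 1 (IER3) without a filter on low counts, at an adjusted p under 0.01 and with only the groups compared. For the combination against irinotecan it was 3 to 5, and 5 with DESeq2, which added SPRY2 and ETV5. Replicate numbers were shared by titles only: of 18 same-numbered pairs, 17 had deviations correlated above 0.1 (-0.07 to 0.56), and 10 of 12 libraries correlated best with their own number. With the replicate number as a block in the 12 numbered libraries, 6 members were called for the combination against irinotecan, where 3 were called unblocked. The block added SPRY2, SPRED1 and ETV5. For irinotecan against DMSO 7 were called with the block, with DUSP5 gained and IER3 lost. For the combination against irinotecan the share of all genes called was 12.0% against 4.22%. No called value of the 33 genes tried (10 members, 3 signature genes, 20 other named genes) changed sign under any alternative run, and 80 of 2263 values that were not called did. Over all genes, simvastatin against DMSO gave 999 calls, 513 in the 12 numbered libraries unblocked, 1141 with the block and 664 without simvastatin replicate 4, and the combination against irinotecan gave 989, or 2016 with the block. The interaction gave 2, or 14 without a filter, 190 with the block, 4 with DESeq2 and 0 to 9 with 1 library left out. At an adjusted p under 0.01 the counts were 558, 2587 (of 4015), 3032 (of 4677), 529, 2681 (of 4259) and 0 in the order simvastatin, irinotecan and combination against DMSO, combination against irinotecan, against simvastatin, and interaction. Scaling by library totals moved the median of all genes by 0.07 for irinotecan against DMSO. The lowest count of a member in a library was 411 (ETV4).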

Other observations

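Enzymes that make the lipid anchors of RAS and its relatives, attach them or process the proteins that bear them were read as well. Of 9 prenylation genes, 0 were called with simvastatin by edgeR (beside 6.00% of all genes, median log2 fold change 0.06), and 1 fell with irinotecan (11.1%, beside 24.1%), FDPS, which makes farnesyl diphosphate (-0.20 ± 0.05). In the combination against simvastatin FNTB, the beta subunit of farnesyltransferase (-0.27 ± 0.07), and FDPS (-0.14 ± 0.05) fell. These were 2 of 9 (22.2%, beside 25.6% of all genes), and 0 of 9 were called in the combination against DMSO (beside 28.1%). The FDPS call for irinotecan against DMSO was lost with scaling by library totals alone (-0.12, edgeR adjusted p = 0.0609). It was also lost in the 12 numbered libraries without the replicate number (-0.16, 0.0605), and kept there with the number as a block (0.00677). The FDPS call for the combination against simvastatin was lost without simvastatin replicate 1 (0.0592), 2 (0.0668), 3 (0.0588) or 4 (0.0729) or combination replicate 1 (0.0557) or 3 (0.165).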
